A study of Homo sapiens with 6 samples.

Results

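The 2 knockdowns compared here lower different subunits of 1 enzyme. METTL3 and METTL14 were each knocked down in K562 cells, a human chronic myeloid leukemia line grown from a pleural effusion in blast phase, and the question was which transcripts separate shMETTL3 from shMETTL14 cells. The RNA-seq data held 2 libraries each of shMETTL3 and shMETTL14 cells, beside 2 of shCTR cells, 6 in all. The shCTR cells are labelled as wild type and, per the study's methods, carried a nonsense sequence in the lentiviral GFP and puromycin vector used for METTL3, and the METTL3 lines were selected with puromycin in the same way. How the METTL14 lines were made is not given in the sources used here. All cells were collected in logarithmic growth. Nothing in the sources says that replicates came from separate cultures or infections, so p-values measure the spread between these libraries, which may be technical. The members are all genes that passed a filter on low counts, 17686 of the 61661 identifiers in the table.

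METTL3 and METTL14 form the heterodimer that writes N6-methyladenosine (m6A) on nuclear RNA, mostly at adenosines in a DRACH context. METTL3 binds the methyl donor and catalyses the transfer, METTL14 holds the RNA substrate and stabilises METTL3, and WTAP, VIRMA, ZC3H13, CBLL1, RBM15 and RBM15B bring the dimer to its targets. The mark is read by YTH-domain proteins, which change splicing, export, decay or translation of the modified RNA.

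The METTL3 hairpin is shown because its sequence fixes which transcripts it can pair with. Written 5′ to 3′, with the seed at bases 2 to 8 in capitals, its strands are these.
guide: aACAATGGattgttccttggc
passenger: gCCAAGGAacaatccattgtt
The target matched exactly in 5 GENCODE release 29 transcripts, which belong to 1 gene, METTL3. The hairpin against METTL14 is not analysed here.

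METTL3 (ENSG00000165819) had 1031 and 938 reads in the shMETTL3 libraries, 1731 and 1498 in the shMETTL14 libraries and 1788 and 1728 in the shCTR libraries. It was lower in both shMETTL3 libraries than in the other 4, and between shMETTL3 and shMETTL14 cells it differed by -0.73 on the log2 scale (standard error 0.0786, adjusted p = 2.56e-06). Adjusted p-values here come from the edgeR quasi-likelihood test, corrected by the Benjamini-Hochberg method over all genes tested. METTL14 had 752 and 710 reads in shMETTL3, 375 and 404 in shMETTL14 and 656 and 655 in shCTR libraries. It differed by 0.89 (standard error 0.0878, adjusted p = 7.81e-07), with the shMETTL14 libraries the lowest. Against shCTR, METTL3 fell by 0.87 on the log2 scale in shMETTL3 cells and METTL14 fell by 0.76 in shMETTL14 cells, and mean levels went from 90.4 to 49.6 and from 33.7 to 19.8 CPM, the counts scaled to a common library size. Neither knockdown removed its transcript, and protein was not measured in these data. The untargeted subunit was not called in either knockdown: METTL14 was 0.13 above shCTR in shMETTL3 cells (adjusted p = 0.32) and METTL3 was at -0.14 in shMETTL14 cells (adjusted p = 0.323).

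**Figure D1:**
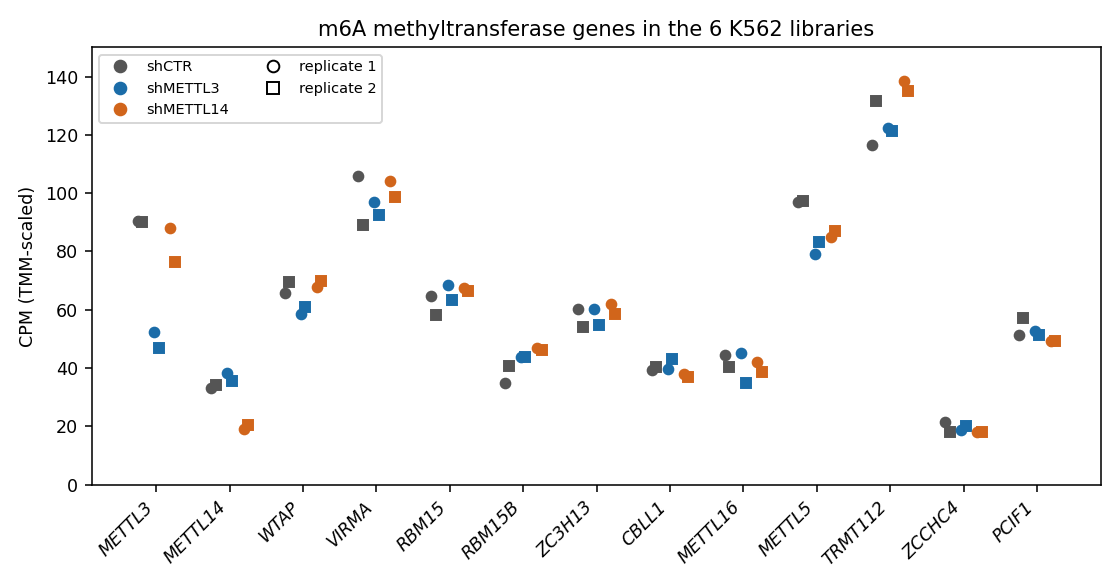
CPM, scaled by TMM factors, of 13 m6A methyltransferase genes in each of the 6 libraries (colour gives the group, circle and square the replicate). METTL3 is lowest in both shMETTL3 libraries and METTL14 in both shMETTL14 libraries.

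Of the 13 methyltransferase genes, METTL3 and METTL14 alone were called between the knockdowns. WTAP, the regulatory subunit, had 1150 and 1225 reads in shMETTL3 and 1334 and 1366 in shMETTL14 libraries. Its libraries did not overlap between the knockdowns, but the log2 fold change of -0.20 missed the threshold (adjusted p = 0.0578). Of 17 readers and erasers, only YTHDF1, a cytoplasmic reader, was called (log2 fold change 0.27, adjusted p = 0.0186), and it lost the call without shMETTL3 replicate 1, shMETTL3 replicate 2 or shMETTL14 replicate 1.

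Between shMETTL3 and shMETTL14 cells, 2148 of 17686 genes (12.1%) were called at an adjusted p under 0.05. Of these, 1177 (6.65%) were higher in shMETTL3 and 971 (5.49%) lower. With a change of at least 1 on the log2 scale as well, 467 genes (2.64%) were called, 343 higher (1.94%) and 124 lower (0.701%). Larger differences were therefore mostly on the shMETTL3-high side, but mostly in genes of low level. The median mean level was 1.46 CPM in the 343 and 1.72 CPM in the 124, against 15.8 CPM in all genes tested. Whether such genes passed the filter through 1 group alone was not checked. The share of calls that were higher was 54.8%, and 65% when libraries were scaled by their totals without TMM factors, with 1399 genes higher and 754 lower. The same fit called 2912 genes (16.5%) for shMETTL3 against shCTR, 8.73% higher and 7.73% lower, and 1184 (6.69%) for shMETTL14, 3.43% higher and 3.26% lower. With 2 libraries a group, the knockdown libraries did not overlap in 56.7% of genes and all 3 groups were separate in 20.8%, so such separation alone is common. Leaving out either library of either knockdown reduced the calls between the knockdowns to between 942 and 1123.

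Libraries held 19292574 to 20115304 reads and mitochondrial transcripts took 3.36% to 3.78% of them. The root mean square log2 distance was 0.355 to 0.359 between a shMETTL3 and a shMETTL14 library and 0.234 to 0.262 between libraries of 1 group. The K562 label was checked against markers: 12 erythroid markers summed to 1803 to 2021 CPM per library, the shMETTL3 libraries being the highest, while T cell, B cell, monocyte and stromal lists stayed at or under 6.62 CPM. In bulk RNA, fewer cells of a kind and less RNA per cell cannot be told apart.

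The 2148 genes differed in which knockdown had moved. Against shCTR, 1039 of them (48.4%) were called in shMETTL3 cells only and 311 (14.5%) in shMETTL14 cells only. Another 74 (3.45%) were called in both with the same sign and 69 (3.21%) in both with opposite signs. The other 655 (30.5%) were called in neither, although the knockdowns differed from each other. These classes share the shCTR libraries, and being called in 1 knockdown and not in the other is not by itself a test of the difference, which here is the direct comparison.

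**Figure D2:**
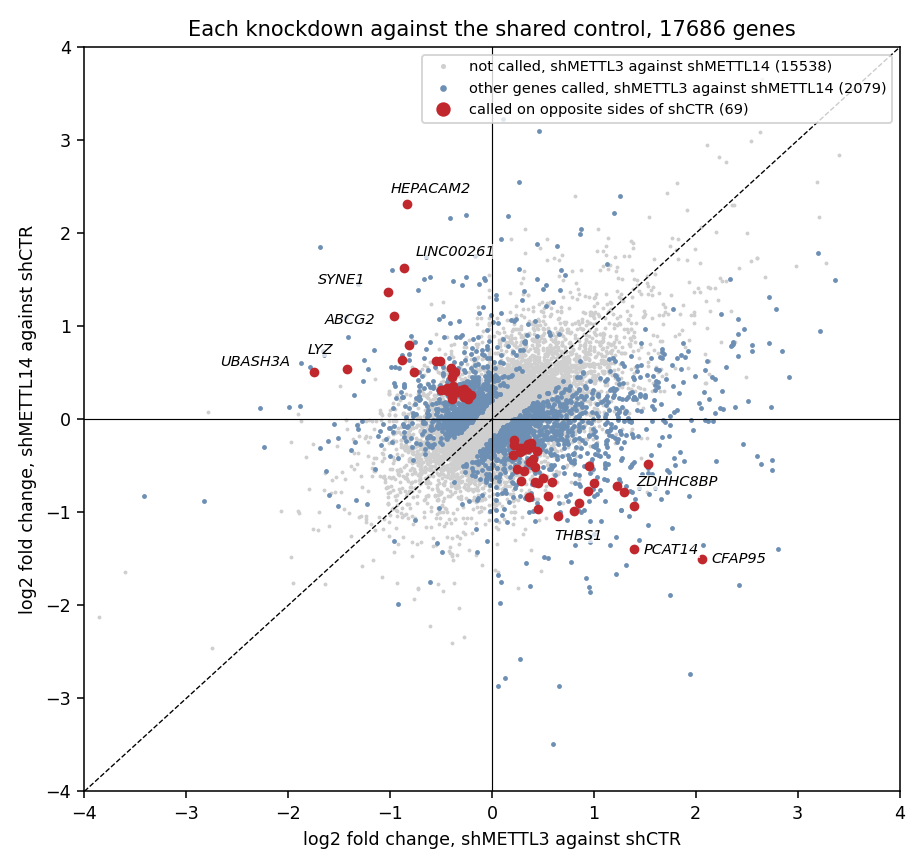
Log2 fold change against shCTR in shMETTL3 cells (horizontal) and in shMETTL14 cells (vertical), 1 point per gene tested, with the line of equal change dashed. The 15538 uncalled genes lie along that line, 2079 called genes lie off it, and 69 genes called on opposite sides of shCTR lie to the upper left and lower right. Of all these, 7 genes lie outside the axes and are not drawn. Both axes share the shCTR libraries.

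CFAP95 encodes a protein of ciliary microtubules. It had the largest difference among genes higher in shMETTL3 cells with at least 10 reads in each of the 4 knockdown libraries and no overlap. Genes with fewer reads were not ranked. It lies at chr9:69820793-69906232 on the plus strand (hg38). It had 762 and 814 reads in shMETTL3, 76 and 55 in shMETTL14 and 171 and 198 in shCTR libraries. No group overlapped another, and the log2 fold change between the knockdowns was 3.57 (standard error 0.137, adjusted p = 2.52e-12). COTL1, an actin-binding protein, followed by p-value with 2933 and 3036 against 794 and 883 reads (log2 fold change 1.81, adjusted p = 4.88e-12). Its shCTR libraries, at 828 and 908 reads, sat at the shMETTL14 level, so the difference lay in shMETTL3 cells.

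KIF1A, a kinesin that carries synaptic vesicle precursors, had 138 and 187 reads in shMETTL3 against 20 and 15 in shMETTL14 libraries (log2 fold change 3.19, adjusted p = 9.10e-08). ADCY6, an adenylate cyclase, had 536 and 612 against 117 and 129 reads (2.20, adjusted p = 2.44e-10). COL6A1, a chain of collagen VI, had 204 and 188 against 42 and 43 reads (2.19, adjusted p = 2.83e-07). All of these were near their shCTR level in shMETTL14 cells, at -0.44, -0.35 and -0.01 on the log2 scale and not called there. NXN, a redox protein of the thioredoxin family, and the tetraspanin TSPAN18 were higher by 1.74 and 2.01. FLJ36000, a noncoding RNA, was higher by 2.29.

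ZBTB16, the transcription factor PLZF, reached its place from the other side. It had 14 and 21 reads in shMETTL14, 63 and 58 in shCTR and 90 and 70 in shMETTL3 libraries, with a log2 fold change of 2.17 between the knockdowns (adjusted p = 1.86e-05). CALU, a calcium-binding protein of the secretory pathway, had 3205 and 3135 reads in shMETTL14 libraries against 6170 and 5830 in shMETTL3 and 5936 and 5528 in shCTR libraries. Its log2 fold change was 0.90 between the knockdowns (adjusted p = 5.42e-09) and -0.87 for shMETTL14 against shCTR. Both genes were thus low in the shMETTL14 libraries, with shMETTL3 libraries not called against shCTR.

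BOLA2B and IKBKGP1 also met the rule for large changes, but their values do not stand on both replicates. IKBKGP1, a pseudogene with a near-identical parent, had 348 and 39 reads in the shMETTL3 libraries against 33 and 30 in shMETTL14, and its log2 fold change of 2.61 was 0.28 without shMETTL3 replicate 1. BOLA2B, which has near-identical copies, had 223 and 658 reads in shMETTL3 and 51 and 69 in shMETTL14 but ran from 40 to 663 within shCTR alone, and it kept its call in 9 of 13 alternative analyses. Reads of such copies may be split in counting, so both are uncertain.

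In the other direction, HEPACAM2, an adhesion molecule of the immunoglobulin family, had 50 and 56 reads in shMETTL3, 472 and 459 in shMETTL14 and 117 and 69 in shCTR libraries. The log2 fold change of shMETTL3 against shMETTL14 was -3.15 (standard error 0.175, adjusted p = 2.96e-10). AFP, the fetal serum protein alpha-fetoprotein, had 16 and 30 against 143 and 129 reads (-2.57, adjusted p = 6.69e-07), and ESR2, estrogen receptor beta, had 77 and 61 against 243 and 226 (-1.78, adjusted p = 4.33e-07). For AFP and ESR2 the shMETTL3 and shCTR libraries were close, and the shMETTL14 libraries stood above both. ACP5, an acid phosphatase of macrophages and osteoclasts, and KIAA0040 had the same order, with log2 fold changes of -1.74 and -1.58.

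LYZ, the lysozyme of myeloid cells, had 324 and 310 reads in shMETTL3, 830 and 840 in shCTR and 1177 and 1273 in shMETTL14 libraries. Its log2 fold change between the knockdowns was -1.97 (standard error 0.0840, adjusted p = 6.07e-12), the smallest p-value among genes lower in shMETTL3 cells. ALDH1A2, which makes retinoic acid, HPGD, which inactivates prostaglandins, and CITED2, a transcriptional co-regulator, had a different order. Their log2 fold changes were -1.03, -1.26 and -0.88, with shMETTL14 at -0.07 to -0.05 against shCTR and not called. For ALDH1A2, the reads were 400 and 358 in shMETTL3, 756 and 771 in shMETTL14 and 798 and 765 in shCTR libraries.

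OVCH1, which encodes a serine protease, was the 1 gene at the floor of 3 reads in 1 knockdown and at 30 reads or more in the other. It had 0 and 3 reads in shMETTL3, 53 and 49 in shMETTL14 and 4 and 0 in shCTR libraries (adjusted p = 1.38e-05, and 0.0586 in DESeq2). OVCH1 passed the filter only through the shMETTL14 libraries and was picked by this floor, so it had to differ and its p-values are not evidence. DDT, a homolog of the cytokine MIF with a near-identical copy, had 287 and 65 reads in the shMETTL14 libraries and 26 and 39 in shMETTL3. Its log2 fold change of -2.45 was -1.02 without the first of these libraries, shMETTL14 replicate 1.

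Genes on opposite sides of the shCTR level, called against shCTR in both knockdowns with opposite signs, numbered 69 (0.39% of genes tested). Of these, 37 (0.209%) were above shCTR in shMETTL3 and below it in shMETTL14, with median log2 fold changes of 0.42 and -0.55. The other 32 (0.181%) were below it in shMETTL3 and above it in shMETTL14, with medians of -0.40 and 0.35. Because the calls themselves put the groups in this order, the values are given as a description with no test. The first pattern held 33 protein-coding genes and the second 24.

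In the first pattern, PDGFB, a growth factor for mesenchymal cells, had 1083 and 1383 reads in shMETTL3, 591 and 660 in shCTR and 366 and 375 in shMETTL14 libraries. CCND1, the cyclin D1 that drives G1 progression, had 1000 and 1098, then 726 and 780, then 428 and 350. THBS1, thrombospondin 1 of platelet granules and matrix, had 499 and 601, then 355 and 332, then 176 and 160. In each of these genes the shCTR libraries lay between the knockdowns without overlap. Against shCTR, shMETTL3 was at 0.45 to 0.95 and shMETTL14 at -1.04 to -0.77 on the log2 scale.

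UNC5B, a netrin receptor, had 734 and 632 reads in shMETTL3, 362 and 376 in shCTR and 212 and 188 in shMETTL14 libraries. SYP, synaptophysin of synaptic vesicles, had 365 and 382, then 250 and 236, then 160 and 147, and NPTXR, a neuronal pentraxin receptor, had 360 and 473, then 200 and 207, then 130 and 126. SNPH, which anchors mitochondria in axons, had 550 and 582, then 273 and 301, then 212 and 198. The pattern also held the noncoding RNA PCAT14 (145 and 156 reads in shMETTL3, 27 and 16 in shMETTL14). It held the pseudogene ZDHHC8BP too (321 and 358, 75 and 83), whose reads may be shared with its parent gene. VEGFA, the endothelial growth factor, was among the most abundant, with 7128 and 7378 reads in shMETTL3, 5799 and 5929 in shCTR and 4773 and 4781 in shMETTL14 libraries. PALD1, whose product has a phosphatase domain, had 145 and 130 reads against 27 and 27.

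In the second pattern, SYNE1, the nuclear envelope protein nesprin-1, had 119 and 148 reads in shMETTL3, 292 and 240 in shCTR and 723 and 662 in shMETTL14 libraries. ABCG2, the drug efflux transporter, had 169 and 176, then 345 and 312, then 676 and 755. UBASH3A, a suppressor of T cell receptor signaling, had 178 and 206, then 635 and 630, then 960 and 860. LYZ and HEPACAM2, described above, belonged to the same pattern. For UBASH3A and LYZ the larger step was in shMETTL3, at -1.75 and -1.43 on the log2 scale, and for HEPACAM2 it was in shMETTL14, at 2.31.

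LINC00261 and FOXA2, a noncoding RNA and the endodermal transcription factor encoded beside it on chromosome 20, were both in the second pattern. LINC00261 had 95 and 98 reads in shMETTL3, 140 and 203 in shCTR and 522 and 553 in shMETTL14 libraries, and FOXA2 had 306 and 326, then 367 and 443, then 559 and 561. ANKRD44 (111 and 113, 159 and 162, 245 and 257 reads), LINC01619 (39 and 39, 73 and 62, 115 and 123) and ARHGDIB, a GTPase regulator of blood cells (178 and 196, 235 and 250, 354 and 362), had smaller steps. In each of these genes the shCTR libraries again lay between the knockdowns.

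**Figure D3:**
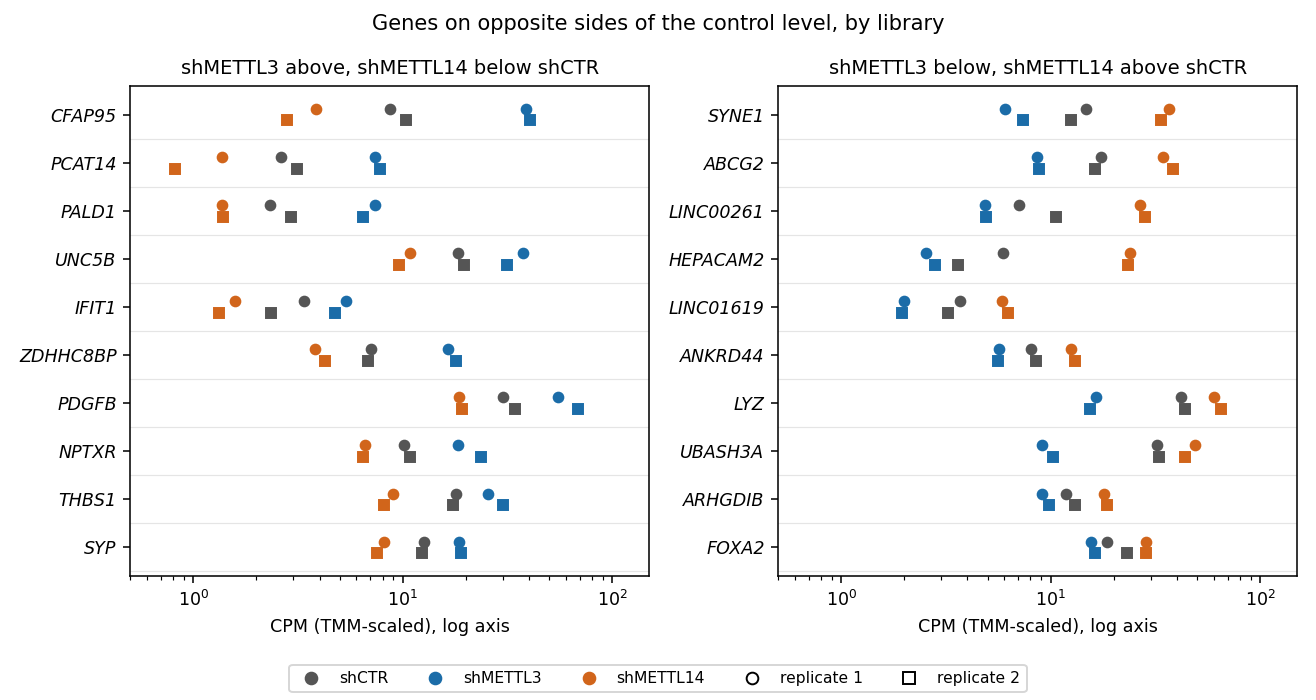
TMM-scaled CPM on a log axis for the 10 genes of each pattern with the largest smaller-of-2 change, in every library (colour gives the group, circle and square the replicate). In every row the shCTR points lie between the shMETTL3 and shMETTL14 points, as the choice of these genes requires.

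All 69 genes were called between the knockdowns in each of 13 alternative analyses, but the calls against shCTR that define them were less stable. Under the 12 alternatives that include shCTR, 8 of 37 and 4 of 32 kept both calls throughout. The 8 were ATP6V0D1, CCND1, CFAP95, PDGFB, PTK7, SYP, THBS1 and UNC5B, and the 4 were ABCG2, LINC00261, LYZ and SYNE1. Leaving out 1 library gave 15 to 35 genes of the first pattern and 7 to 22 of the second, with the fewest in all, 22, without shMETTL14 replicate 1.

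K562 cells can be driven toward erythroid or megakaryocytic fates. Of 30 megakaryocyte and platelet genes listed, 15 passed the filter on low counts, and of these 9 (60%, against 6.65% of all genes) were higher in shMETTL3 and 0 lower, also 0 at an unadjusted p under 0.05 and in DESeq2. The list's median log2 fold change was 0.64, against -0.00 over all genes. ITGA2B, the platelet integrin alpha IIb, had 441 and 405 reads in shMETTL3, 220 and 211 in shMETTL14 and 227 and 254 in shCTR libraries (log2 fold change 0.96, adjusted p = 9.05e-06). ITGB3, its partner chain, is named after its values were seen, with 14 and 14, then 1 and 1, then 4 and 4 reads. ITGB3 passed the filter only through the shMETTL3 libraries, so it had to differ and adds no evidence. It is counted among the 15 tested, so the 60% does not leave it out. The other members were not checked for passing in this way. SPARC, a matrix protein of platelet granules (0.67), and CD226, an adhesion receptor (1.02), were higher too, and THBS1 was the member on opposite sides of shCTR. Of the 9 calls, 5 held in all 13 alternatives.

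The erythroid lists split. Of 32 globin and heme genes, 6 (18.8%) were higher and 5 (15.6%) lower, against 6.65% and 5.49% of all genes (median -0.04). HBE1, the embryonic beta-like globin, had 7485 and 8685 reads in shMETTL3, 5413 and 5456 in shMETTL14 and 3904 and 4214 in shCTR libraries (0.56, adjusted p = 1.22e-05). ALAS2, the erythroid enzyme that starts heme synthesis, had 1040 and 996, 652 and 687, and 274 and 309 (0.59, adjusted p = 6.40e-05). HBE1 and ALAS2 were thus above shCTR in both knockdowns and further above it in shMETTL3. HBA1 was higher by 0.74 between the knockdowns, with a near-identical copy, HBA2, that makes its reads uncertain, and FTL, the ferritin light chain, by 0.37. PPOX, a later enzyme of heme synthesis (-0.59), TFR2, transferrin receptor 2 (-0.51), and SLC40A1, the iron exporter (-0.37), were lower.

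Of 27 red cell membrane and surface genes, 11 (40.7%, against 5.49%) were lower in shMETTL3 and 4 (14.8%, against 6.65%) higher, with a median of -0.09. CD36, a scavenger receptor, had 248 and 229 reads in shMETTL3, 406 and 438 in shMETTL14 and 196 and 201 in shCTR libraries (-0.84, adjusted p = 2.48e-05), so it rose in shMETTL14. XK, a membrane protein of red cells, had 3621 and 3954 against 4745 and 4967 (-0.38, adjusted p = 0.000440). GYPE, a glycophorin with close copies, was at -0.47. STOM, stomatin, was opposite, with 4180 and 4875 against 2544 and 2408 reads (0.85, adjusted p = 6.02e-08), as were BCAM (0.75), SLC4A1, the band 3 anion exchanger (0.96), and ADD2 (0.22). Membrane genes of 1 cell type therefore moved in both directions. With library size alone the counts were 8 lower and 5 higher.

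Of 29 erythroid and megakaryocytic transcription factors, 7 (24.1%) were higher and 3 (10.3%) lower, against 6.65% and 5.49% of all genes (median 0.06). GFI1B, a repressor needed in both lineages, had 1508 and 1889 reads in shMETTL3 against 1210 and 1110 in shMETTL14 libraries (0.53, adjusted p = 0.000623). LYL1 (0.45), MAFG (0.30) and NFE2L1 (0.29) were higher, and MEIS1 (-0.59), HHEX (-0.25) and SPI1, the myeloid factor PU.1 (-0.62), lower. Of 15 myeloid markers, CEBPB (0.34) and ANPEP (0.79) were higher (13.3%) and LYZ, CD33 (-0.46) and CYBB (-0.46) lower (20%). SPI1 had 184 and 147 reads in shMETTL3, 246 and 256 in shMETTL14 and 241 and 342 in shCTR libraries, and lost its call without shMETTL3 replicate 2, shMETTL14 replicate 1 or shMETTL14 replicate 2.

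Other cell types were checked beside these lineages. The shares below are to be read against 6.65% higher and 5.49% lower of all genes, and 1 call is a large share of lists this small. Of 9 progenitor markers tested, HLF was higher (1.31, 11.1%) and ALDH1A1 (-0.24) and MLLT3 (-0.33) were lower (22.2%). Of 7 lymphoid markers, UBASH3A alone was called, and it was lower (14.3%). Of 7 epithelial and stromal markers, 14.3% were higher and 42.9% lower. COL1A1 was higher (0.69) and the keratins KRT8 (-0.52), KRT18 (-0.29) and KRT19 (-0.53) were lower. KRT8 had 4511 and 4818 against 6864 and 6333 reads. The epithelial marker list summed to 100 to 106 CPM in shMETTL3, 134 to 140 in shMETTL14 and 121 to 127 in shCTR libraries. Only KRT19 was higher in shMETTL14 than in shCTR, at 92.2 to 99.5 against 66.3 to 72.5 CPM. EPCAM was at 36.5 to 37.1 CPM in shMETTL3, 40.7 to 41.9 in shMETTL14 and 54.4 to 54.8 in shCTR libraries. CDH1, the list's defining adhesion gene, had 0 reads in all 6 libraries. The part of such markers in the differences was not tested.

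In MAPK signaling, a subject of the study, growth factor receptors act through RAS and RAF on kinases that switch on early genes. Of 38 immediate early and MAPK-responsive genes, 9 (23.7%) were higher in shMETTL3 than in shMETTL14 and 1 (2.63%) lower, with a median of 0.17. Over all genes the shares were 6.65% and 5.49%. Besides CCND1 (log2 fold change 1.41), GDF15, a stress cytokine, had 13009 and 13347 reads in shMETTL3, 7654 and 7636 in shMETTL14 and 6015 and 6550 in shCTR libraries (0.77, adjusted p = 4.95e-08). DUSP8, a phosphatase of stress kinases, was on opposite sides of shCTR, with 249 and 234, 93 and 91, and 170 and 153 reads. JUN, an AP-1 subunit, had 1086 and 810 reads in shMETTL3, 588 and 665 in shMETTL14 and 892 and 987 in shCTR libraries (0.58, adjusted p = 0.00161), and it fell against shCTR in shMETTL14 and was not called in shMETTL3. Between the knockdowns JUN lost its call in DESeq2 (adjusted p = 0.0592), without shMETTL3 replicate 1 (0.34, adjusted p = 0.0854) and without shMETTL14 replicate 1 (0.49, adjusted p = 0.0672). ETV1 was the 1 member lower (-0.44). Of the 9 higher calls, 3 held in all 13 alternatives.

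Of 34 RAS and RAF regulators, 4 (11.8%) were higher and 1 (2.94%) lower, 14.7% in all and near the 12.1% of all genes. MRAS, a RAS-family GTPase, had 650 and 656 reads in shMETTL3, 286 and 274 in shMETTL14 and 502 and 490 in shCTR libraries (1.20, adjusted p = 2.97e-08). RASGRP2, a guanine exchange factor of platelets, was higher by 0.61 and, like MRAS, on opposite sides of shCTR. RASGRP3 (1.31) and the scaffold KSR1 (0.23) were higher. Of 41 genes of the stress kinase tiers, 7 (17.1%) were higher and 5 (12.2%) lower, against 6.65% and 5.49% of all genes. MAP3K3 was at 0.57, GADD45A at 0.31, MAPK8IP1 at 0.60, MAP3K12 at 0.49, NLK at -0.41 and MAP4K4 at -0.25.

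Of 40 growth factors and receptors, 10 (25%) were higher and 5 (12.5%) lower, against 6.65% and 5.49% of all genes. The higher members with the smallest p-values were ligands: PDGFB (1.72), PDGFA (0.98, 162 and 179 against 85 and 86 reads), VEGFA (0.59) and INHBE, an activin subunit (0.54). The lower ones were receptor chains: IL6ST (-0.45), TGFBR1 (-0.37), TGFBR3 (-0.31) and IL1R1 (-0.69), the last with 113 and 90 reads in shMETTL3 against 164 and 160 in shMETTL14. The receptors BMPR1A (0.37), ERBB2 (0.40) and CD40 (0.88) were among the other higher members, and are named here after their values were seen. Of 48 adhesion, caveolae and matrix genes, 10 (20.8%) were higher, 8 of them in all 13 alternatives, and 9 (18.8%) lower. SDC3, a heparan sulfate proteoglycan, had 1564 and 1490 against 784 and 791 reads (0.94, adjusted p = 2.77e-08), LAMC1, a laminin chain, had 150 and 157 against 54 and 44 (1.63), and CAVIN1 was on opposite sides of shCTR. The galectin LGALS3 (-0.65), the actin crosslinker FLNA (-0.31), S100A6 (-0.52) and S100A4 (-1.08) were lower.

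ATF4 drives amino acid synthesis and transport genes when translation initiation is restrained. Of 36 genes of its program, 12 (33.3%, against 6.65% of all genes) were higher in shMETTL3 and 0 lower, with a median of 0.14. Lower members numbered 1 at an unadjusted p under 0.05, 0 in DESeq2, and 1 after a correction for the GC content and length of transcripts. ATF5, a related factor, had 3537 and 3189 reads in shMETTL3, 2059 and 2086 in shMETTL14 and 2301 and 2562 in shCTR libraries (0.68, adjusted p = 3.19e-06). TRIB3, a pseudokinase induced by the pathway, had 9829 and 10614 against 7189 and 7058 (0.50, adjusted p = 6.54e-06). ATF4 itself was at -0.01 (not called), and the 12 included VEGFA and CEBPB, which other lists hold too. Of the 12 calls, 3 held in all 13 alternatives.

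Of 52 DNA replication and S phase genes, 11 (21.2%, against 6.65% of all genes) were higher in shMETTL3 and 0 lower, with a median of 0.11. Lower members numbered 2 at an unadjusted p under 0.05, 0 in DESeq2, and 2 after the correction for GC content and length. RRM2, a subunit of ribonucleotide reductase, had 2913 and 3010 against 2282 and 2240 reads (0.37, adjusted p = 0.000323), and E2F1 (0.37), E2F2 (0.44) and CDC6 (0.31) were higher. Of the 11 calls, 1 held in all 13 alternatives. Of 56 mitosis genes, MYBL2 was higher (0.29) and PTTG1 (-0.23) and KIF4A (-0.26) lower. CDKN1A, the CDK inhibitor p21, had 1413 and 1471 reads in shMETTL3, 745 and 820 in shMETTL14 and 664 and 716 in shCTR libraries (0.86, adjusted p = 2.18e-07), 1 of 8 higher members among 33 CDK inhibitor, G1 and p53 target genes. Of that list, 24.2% were higher and 9.09% lower, against 6.65% and 5.49% of all genes. BTG1 (-0.53) and BTG2 (-0.71), antiproliferative genes of the same list, were lower. An inhibitor of the cycle and S phase genes were therefore higher in the same libraries.

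Of 34 apoptosis genes, 7 (20.6%) were higher and 2 (5.88%) lower, against 6.65% and 5.49% of all genes. HRK, a BH3-only activator, had 72 and 53 against 18 and 12 reads (2.03, adjusted p = 0.000134), BBC3, or PUMA, was at 0.33, and MCL1, an inhibitor of apoptosis, was at 0.33 as well. CASP4 (0.65) was higher and CASP9 (-0.23) and CASP10 (-0.31) lower.

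Of 77 nuclear genes of oxidative phosphorylation, 14 (18.2%) were lower and 1 (1.30%), NDUFC1, higher, with a median of -0.11 and 61 members below 0. NDUFA10, a complex I subunit, had 2356 and 2149 against 2650 and 2756 reads (-0.28, adjusted p = 0.00828), and ATP5PF was at -0.27. None of the 14 calls held in all 13 alternatives, and with library size alone 5 were lower and the median was -0.08. The smaller group of 15 mitochondrially encoded genes had 1 call, MT-CO1 (-0.19). Of 46 SR protein and hnRNP genes, which act in splicing, 9 (19.6%) were lower and 1 higher, with a median of -0.09, and SRSF2 had 2840 and 2384 against 3751 and 3792 reads (-0.55, adjusted p = 5.90e-05). With library size alone 3 of these splicing genes were lower. Of 79 cytosolic ribosomal protein genes, 76 were below 0 with a median of -0.09, but 3 (3.80%, under the 5.49% of all genes) were called lower, FAU, RPS29 and RPL37. That count was 0 with library size alone and 9 after the correction for GC content and length, which called 9.02% of all genes lower.

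In cholesterol and fatty acid metabolism, LSS, ELOVL6 and STARD4 were among 5 lower genes of 37, with FADS1 and FADS2 higher, shares of 13.5% and 5.41% against 5.49% and 6.65% of all genes. After the correction for GC content and length 10 were lower and 1 higher, and FADS2 was not called. LSS, lanosterol synthase, had 4014 and 4219 reads in shMETTL3, 5295 and 5259 in shCTR and 6351 and 6085 in shMETTL14 libraries, and FADS1, a fatty acid desaturase, had 17392 and 18488, 15959 and 14540, and 11751 and 11745. The pair thus lay on opposite sides of shCTR in opposite directions. In glycolysis and hypoxia, 6 of 43 genes (14%) were higher, among them SLC2A1 (0.31) and VHL (0.34), and 7 (16.3%) lower, among them PGK1 (-0.44), EGLN3 (-1.16) and EPAS1 (-0.45). Of 45 antioxidant genes, 4 (8.89%) were higher, AKR1C1 (0.31) with the smallest p-value, and 5 (11.1%) lower, PRDX1 (-0.27) and SOD1 (-0.20) among them.

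Of 48 autophagy and lysosome genes, 4 (8.33%) were higher and 6 (12.5%) lower, against 6.65% and 5.49% of all genes. The counts were 5 and 10 after the correction for GC content and length, which called 8.36% and 9.02% of all genes. ATP6V0D1, a subunit of the lysosomal proton pump, had 1495 and 1580 reads in shMETTL3, 1120 and 1200 in shCTR and 849 and 852 in shMETTL14 libraries, and WIPI1, a phosphoinositide-binding autophagy protein, lay on the same sides. CTSH, a lysosomal cysteine protease, was reversed, with 2033 and 2102, 2420 and 2429, and 3022 and 2920. CTSL, another such protease, was above shCTR in both knockdowns, by 0.32 in shMETTL3 and 0.83 in shMETTL14.

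Counts for the other lists follow, to be read against the 6.65% higher and 5.49% lower of all genes. The 23 aminoacyl-tRNA synthetase and 44 proteasome genes had no call in either direction in edgeR's quasi-likelihood test or DESeq2, with 1 and 1 synthetases and 0 and 6 proteasome genes higher and lower at an unadjusted p under 0.05. Of 76 mitochondrial ribosomal proteins 1 (1.32%) was higher and 2 (2.63%) lower, and of 61 ribosome biogenesis genes 3 (4.92%) and 1 (1.64%). Of 62 mRNA decay genes the counts were 1 (1.61%) and 6 (9.68%). Of 58 genes of histone and DNA methylation they were 4 and 4 (6.9% each), and of 20 mitochondrial biogenesis factors 1 (5%) and 0. Among 27 ion channel and calcium genes 5 were higher, with ATP2A3, a calcium pump of platelets and blood cells, at 12288 and 13095 against 7489 and 7010 reads (0.79, adjusted p = 8.58e-08), and 3 lower. Of 20 cancer-testis antigens MAGEC2 was higher (0.79), on opposite sides of shCTR, and CSAG2 lower (-1.17). Of 25 long noncoding RNAs 3 were higher, SNHG1 at 0.30, and 2 lower, PVT1 at -0.67. Of 37 ER stress and heat shock genes 5 were higher and 1, EDEM1 (-0.31), lower, and of these 6 calls 0 held in all 13 alternatives.

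**Figure D4:**
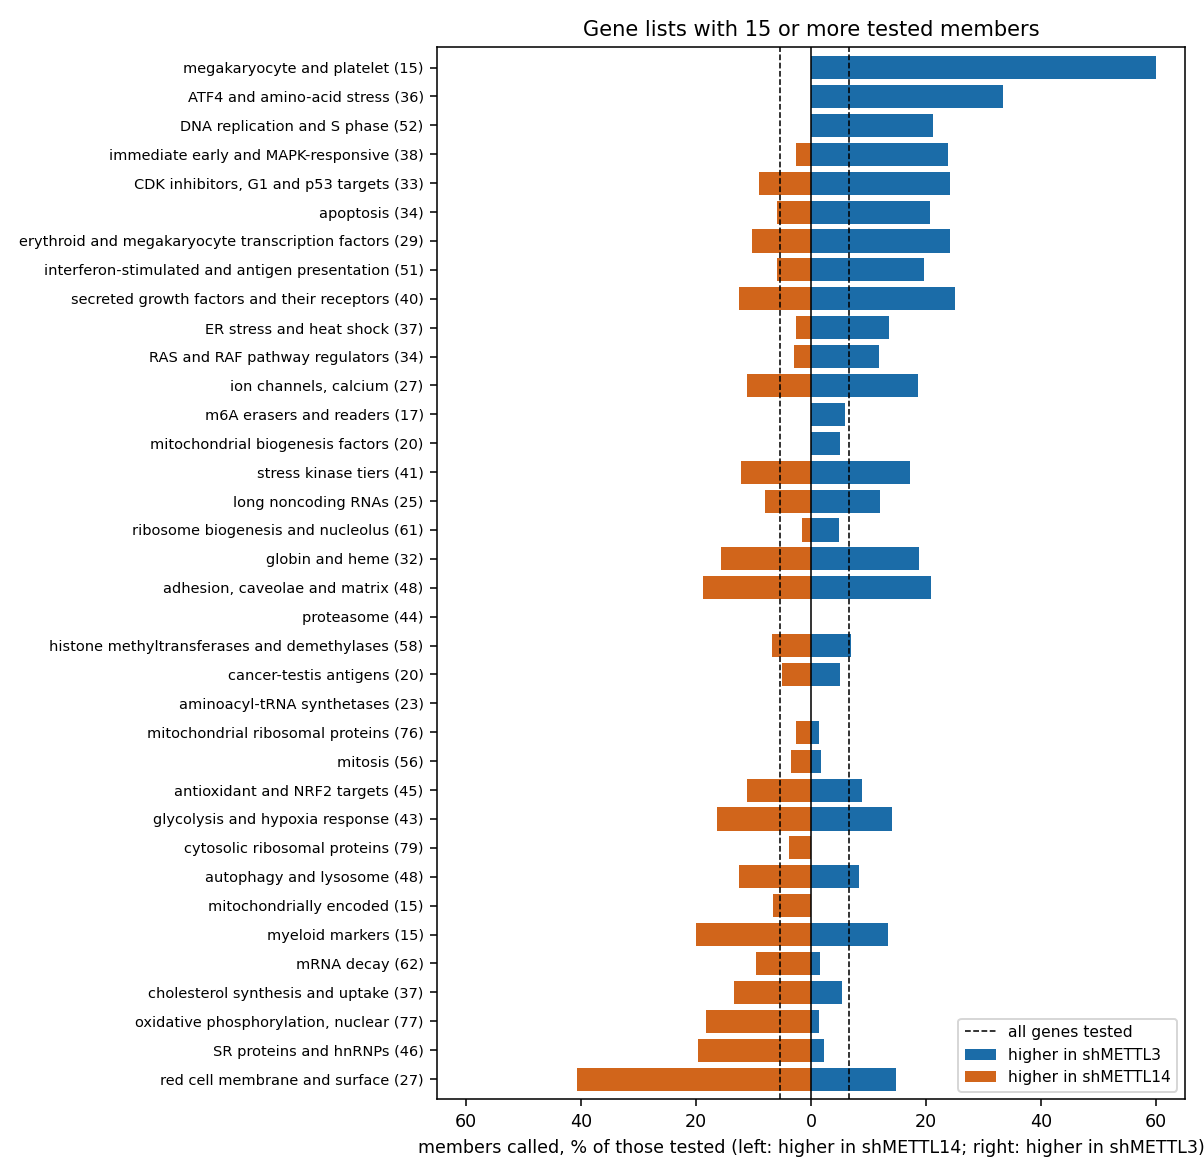
Percent of each list's tested members (number in parentheses) called higher in shMETTL3 (right) or higher in shMETTL14 (left), for lists with at least 15 tested members. Dashed lines mark the 6.65% and 5.49% of all genes tested. Megakaryocyte and platelet genes, ITGB3 counted among those tested, reach 60% on the right, and red cell membrane genes reach 40.7% on the left.

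Interferon-stimulated and antigen presentation genes are induced by STAT and IRF factors. Of 51, 10 (19.6%) were higher in shMETTL3 and 3 (5.88%) lower, with a median of 0.12. IFIT2, an RNA-binding antiviral protein, had 212 and 240 reads in shMETTL3, 56 and 44 in shMETTL14 and 48 and 44 in shCTR libraries (2.16, adjusted p = 1.10e-07). IFIT1 had 105 and 95, 31 and 26, and 67 and 45 reads and was on opposite sides of shCTR. OAS3, an oligoadenylate synthetase, had 504 and 491 against 275 and 252 reads (0.90), and PSMB9, an immunoproteasome subunit, had 324 and 401 against 183 and 208 (0.87). IFITM2 (-0.91), TRIM25 (-0.38) and B2M (-0.32) were lower. The 5.88% lower was near the 5.49% of all genes, while the 19.6% higher was above their 6.65%.

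The IFIT genes lie side by side, and the run of called genes there was the longest found. Between chr10:88935074-89414557, 7 neighbouring tested genes, ACTA2, FAS, LIPA, IFIT2, IFIT3, IFIT1B and IFIT1, were all higher in shMETTL3, with a median of 1.72. The run was found by searching the data and is a description. IFIT3 had 145 and 149 reads in shMETTL3 and 77 and 59 in shMETTL14, LIPA, the lysosomal acid lipase, had 60 and 66 against 16 and 22, and FAS, the death receptor, had 91 and 103 against 44 and 50. ACTA2 (28 and 26 against 8 and 8) and IFIT1B (25 and 44 against 3 and 6) had few reads. ACTA2 overlaps FAS, and the annotated LIPA spans the IFIT genes on the other strand, so reads could be shared between these genes where counting ignored strand, which the sources do not state. The flanking genes IFIT5 (1.19, adjusted p = 0.185) and PANK1 (0.08) were not called.

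The promoters of IFIT1 and IFIT3 are shown because IFIT genes are known targets of interferon response elements close to their starts. RefSeq promoter sequences of GRCh38.p14 (250 bases before to 50 after the start) were searched for the core of such an element, GAAA, then any 2 bases, then GAAA, on both strands, which 2.74% of the promoters of 11083 matched tested genes and 3.65% of all 27305 hold. The 30-base windows below run 5′ to 3′ on the plus strand, with the match, here in its reverse complement, in capitals. Both promoters held 2 matches, those of IFIT1 overlap in their windows, and IFIT1B held 0. IFIT2 had no entry among the promoter sequences used and was not searched.
IFIT1, chr10:89392497-89392526: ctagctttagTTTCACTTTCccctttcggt
IFIT1, chr10:89392510-89392539: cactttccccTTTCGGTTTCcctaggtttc
IFIT3, chr10:89327831-89327860: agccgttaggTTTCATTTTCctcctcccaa
IFIT3, chr10:89327865-89327894: tttaaattagTTTCACTTTCcagtttcctc
Among promoters of genes higher in shMETTL3 the core was in 2.79% of 825, against the 2.74% of tested genes given above.

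On the opposite side, 4 neighbours at chr21:42311667-42447681, TFF3, TFF1, TMPRSS3 and UBASH3A, were lower in shMETTL3, with a median of -2.37. UBASH3A has the values above, and TMPRSS3, a transmembrane serine protease, had 21 and 25 reads in shMETTL3, 136 and 119 in shMETTL14 and 80 and 86 in shCTR libraries (-2.48, adjusted p = 2.83e-07). TFF3 and TFF1, secreted trefoil peptides, had few reads, 3 and 3 against 20 and 22 and 18 and 7 against 28 and 62. The TFF3 level in shCTR was also low, with shMETTL14 at 1.46 above it on the log2 scale. TFF3 thus passed the filter on low counts only through the shMETTL14 libraries, so it had to differ and adds no evidence. It is counted among the 4 neighbours and in the median of -2.37, which do not leave it out. Against shCTR, UBASH3A and TMPRSS3 fell in shMETTL3, and UBASH3A and TFF1 rose in shMETTL14. SLC37A1 (0.15) and ZBTB21 (0.11), which flank the run, were not called. A run of 5 genes from BCAN-AS1 to NES at chr1:156637783-156677397 was higher, with BCAN, a brain proteoglycan, at 308 and 347 against 214 and 165 reads. The antisense transcripts in that run share its reads if strand was ignored.

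**Figure D5:**
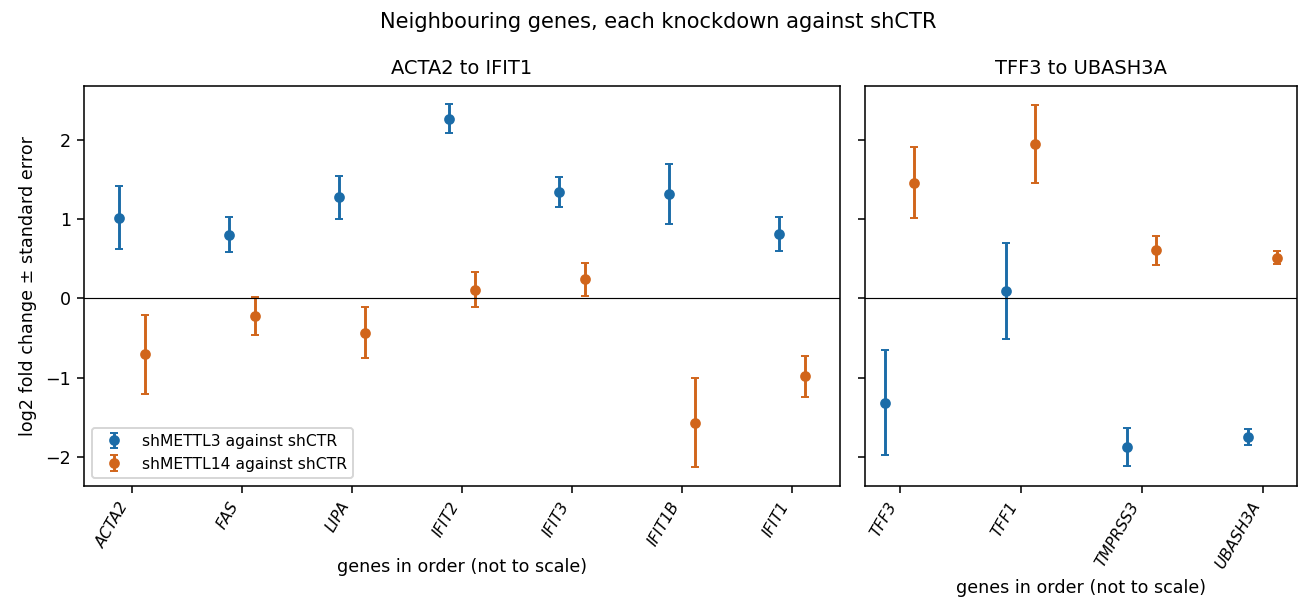
Log2 fold change against shCTR with its standard error for shMETTL3 and shMETTL14, for 2 runs of neighbouring called genes, in chromosomal order and not to scale. Across the ACTA2 to IFIT1 run the shMETTL3 points are above 0, and in the TFF3 to UBASH3A run the shMETTL14 points are above 0. TFF3 passed the filter on low counts only through the shMETTL14 libraries.

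The called genes also differed in composition. The GC content of the longest transcript had a median of 52.4% in genes higher in shMETTL3, 45.9% in genes lower and 48.2% in all genes tested. With genes at a mean of at least 5 CPM put in 5 bins of equal size by GC content, 4.60% were higher and 7.76% lower in the lowest bin, and 10.7% and 4.47% in the highest. The opposite-side genes had medians of 57.5% where shMETTL3 was above and 45.4% where it was below. After a correction for GC content and length, 1478 genes were higher and 1596 lower, and 2075 of the 2148 calls remained, so the balance of the 2 directions turned while most genes kept their call. The part of GC content in the differences beyond this correction was not tested. Called genes were longer than all genes tested, with medians of 3790.5 nt in those higher and 3763 nt in those lower against 2983 nt. The letters GGACT, a strong m6A context, occurred at a median of 1.01 per kilobase in genes higher, 0.83 in genes lower and 0.91 in all. Protein-coding genes made up 88.4% of those higher, 78.7% of those lower and 70.9% of all tested. Length, GC content and GGACT were not compared within protein-coding genes alone.

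Chromosomes carried the directions unequally in the main fit. Over all genes the shares were 6.65% higher and 5.49% lower, and 8.36% and 9.02% after the correction for GC and length. On chromosome 19, 9.15% of 1213 genes were higher and 2.39% lower. After the correction these shares were 10.1% and 8.24%, nearer to those of all genes. On chromosome 21, 3.81% of 210 genes were higher and 9.52% lower, with a median of -0.06, and after the correction 5.71% and 16.2%. Among genes at a mean of at least 5 CPM, the chromosome 21 median was below 0 in each pair of a shMETTL3 and a shMETTL14 library. It ran from -0.09 to -0.04. Other chromosomes were below 0 in each pair too, among them 11 (-0.04 to -0.03) and 18 (-0.05 to -0.03), and the pairs share libraries.

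Among genes with an annotated 3′ UTR, matches to the seed of the METTL3 guide shown above, the letters CCATTGT, were counted. The median log2 fold change between the knockdowns was 0.00 in 10854 genes without a match, 0.00 in 1320 with 1 match and 0.01 in 255 with at least 2. Genes with matches had longer 3′ UTRs, with medians of 1188, 2896.5 and 4948 nt.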

How the data were processed

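The data were RNA-seq libraries of K562 cells, 6 in 3 groups of 2 as the submitters' labels give them. The authors deposited 1 table of raw read counts per gene, not normalized, for 60675 Ensembl genes and 986 unnamed identifiers. Their processing notes name HTSeq 0.6.1 and the build hg38, and mRNA was enriched with oligo(dT) beads. The aligner, annotation release and strand setting are not given in the sources used here. Symbols came from a gene-name table for 41209 identifiers and from GENCODE release 29 for 15846, whose longest transcripts gave GC content and length. Library totals were 19292574 to 20115304 counts. Standard errors come from the spread estimated over all 6 libraries, 2 in each group.

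The software was edgeR 4.0.16 under R 4.3.3. Low counts were removed by filterByExpr (minimum 10), which left 17686 genes, TMM scaling was applied, and 1 quasi-likelihood fit over 6 libraries gave 3 contrasts with Benjamini-Hochberg adjustment at 0.05. CPM values are TMM-scaled. The genes named were the m6A methyltransferases, the 12 largest changes and 12 smallest p-values in each direction (largest changes with at least 10 counts in each of the 4 knockdown libraries and no overlap, smallest p-values with a log2 change of at least 0.5), genes at 3 counts or fewer in 1 knockdown and 30 or more in the other, the 10 opposite-side genes of each pattern with the largest smaller change, and up to 4 called members per list and direction. Genes outside this rule, among them those in runs of neighbours, ITGB3, PTK7, ATF4 and HSPA8, were named after their values were seen. Members and lists were chosen with earlier results of these data known. Steps were tested on simulated counts. Alternatives were DESeq2 1.42.0, its size factors, library size alone, no filter, the 4 knockdown libraries only, a replicate block, a GC and length correction (mgcv 1.9.3), a fold criterion and each library left out. No list was given a set test. Some genes are not reported here.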

Additional observations from a re-analysis of the deposited data

Results flagged for a closer look

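The 37 genes above shCTR in shMETTL3 and below it in shMETTL14, and the 32 with the opposite order, were singled out because the effects of the knockdowns against shCTR had opposite signs. The difference between the knockdowns was called for all 69 in the direct comparison, which shares its libraries with the calls that chose them and is therefore not separate evidence.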

How the results depend on the processing

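With DESeq2, the genes called between shMETTL3 and shMETTL14 numbered 1327 (686 higher, 641 lower), of which 1321 were among the 2148, and those against shCTR 1881 for shMETTL3 and 763 for shMETTL14. The opposite-side genes with shMETTL3 below then numbered 17, and those moved in shMETTL3 only 622, in both alike 43 and in neither 410. Without the filter, 766 genes were called for shMETTL14 against shCTR, 19 were opposite-side with shMETTL3 below and 40 moved alike. The GC and length correction gave 1596 genes lower, 49 opposite-side genes with shMETTL3 below, 495 moved in shMETTL14 only and 139 moved alike, and the cause was not tested. A change of at least 1 on the log2 scale left 467.

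Leaving out each library in turn gave 942 to 2953 calls between the knockdowns (503 to 1520 higher, 395 to 1433 lower), 1102 to 3569 for shMETTL3 and 341 to 1913 for shMETTL14 against shCTR. It gave 15 to 35 and 7 to 22 opposite-side genes, and 414 to 1255, 119 to 408, 17 to 172 and 237 to 1444 genes moved in shMETTL3 only, in shMETTL14 only, in both alike and in neither. The fewest calls came without a knockdown library (942 to 1123), where the lone library of its group is assumed to vary like the other groups.

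The replicate numbers did not pair the libraries: the deviations of same-numbered libraries correlated at 0.23, -0.04 and -0.02. A fit with the replicate number as a block called 2478 genes, all 2148 among them. Of 232 named genes, 386 of the values under other settings lost the threshold, 8 gained it, and 0 changed direction with a call in either fit. METTL16, RBM15 and ZC3H13, which were not called, changed sign.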

Other observations

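Heat shock genes separated the shMETTL3 replicates from each other. HSPA1A, an inducible chaperone, had 5244 and 1811 reads in shMETTL3, 1418 and 1816 in shMETTL14 and 2103 and 2524 in shCTR libraries. Its co-chaperone DNAJB1 had 3506 and 1818, 1464 and 1726, and 1699 and 2023 reads, and CRYAB, a small heat shock protein, had 57 and 12, 5 and 7, and 12 and 17. All were called between the knockdowns (log2 fold changes 1.12, 0.73 and 2.49), with shMETTL3 replicate 1 the highest of 6 libraries each time. Without it none of these calls held, and without shMETTL14 replicate 1 none held either. HSPA1B has a near-identical copy in HSPA1A, so reads of the pair are uncertain. The constitutive HSPA8 was at -0.16 (not called).

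Of the identifiers without an Ensembl gene, 882 were tested, and 43 were higher in shMETTL3 and 73 lower, 13.2% in all against 12.1% of all genes.

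The letters of promoters are given as a description. The SP1 motif GGGGCGGGG, on either strand, lay in 35.0% of 825 promoters of genes higher in shMETTL3, in 27.6% of 645 lower and in 27.4% of 11083 tested, against 16.0% of all 27305. The ETS motif CCGGAAG lay in 10.2%, 16.6% and 19.1%. The part of these letters in the differences was not tested. Of the opposite-side genes with shMETTL3 above, 15 of 19 matched promoters held the SP1 motif, and of those below, 9 of 22.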
